A study of Mus musculus with 6 samples.

Results

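Mfsd2a and 7 receptors that carry cargo across, or into, the endothelium of the blood-brain barrier were followed in endothelial cells sorted from glioma and from normal brain of C57BL/6 mice. The genes were taken by symbol, and all 8 of them (Mfsd2a, Tfrc, Lrp1, Lrp8, Vldlr, Scarb1, Insr and Ager) stood among the 24421 symbols of each library. The glioma group held 3 libraries of tumor endothelium, taken 3 weeks after GL26l glioma cells were injected into the brain of congenic B6 mice. The normal group held 3 libraries of endothelium from normal brain of the same strain. Neither the number of animals behind a library nor the markers used for the sort are given in the sources used here, so each p-value speaks only of the spread among these 6 libraries, part of which may be technical.

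The capillary endothelium of the brain takes up few vesicles. MFSD2A, a transporter of lysophospholipids that carry omega-3 fatty acids, is known to keep vesicle traffic low by altering the lipid make-up of the membrane. What does cross in vesicles is carried by receptors. The transferrin receptor brings iron, the insulin receptor brings insulin, and LRP1 and its relatives of the LDL receptor family bind lipoproteins and many other ligands. SR-BI, the product of Scarb1, binds HDL, and RAGE, the product of Ager, is known as a receptor that brings amyloid-beta from blood to brain.

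Values are the deposited ones, read as log2(x + 1). The values themselves look quantile-normalized across the libraries apart from the genes listed at 0, a step that no source used here states. The library kit reads the 3′ ends of transcripts, so levels of different genes need no length correction. A value of 0 means only that a gene was listed at 0: the lowest value above 0 was 7.43 in normal replicate 1 but 0.22 in normal replicate 3, and 142 of 2391 genes that exceeded 9 in every other library were at 0 in normal replicate 1. Sequencing depth is unknown. A pair of libraries, the replicates numbered 1, was taken as standing apart from the rest. In normal replicate 1 only 7446 genes lay above 0, against 10013 to 13108 in the other 5 libraries, and it correlated with normal replicates 2 and 3 at Pearson's r of 0.584 and 0.600 over 5880 genes, while normal replicates 2 and 3 correlated with each other at 0.972. Glioma replicate 1 correlated with the other glioma libraries at 0.672 and 0.543. The lower value is its correlation with glioma replicate 3, which was not close to the rest either. That library correlated with glioma replicate 2 at 0.749 and with normal replicates 1, 2 and 3 at 0.560, 0.680 and 0.703. The members' results are also given without the replicates numbered 1 where that changes a sign or a count. Counts of the lists of related genes are given in that way too, but were not taken without glioma replicate 3. The 15 pan-endothelial markers and the 10 barrier markers lay above 0 in every library.

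Insr was the member that differed most steadily. It encodes the receptor for insulin and lies on chromosome 8 from 3122061 to 3279617 on the minus strand (mm10, GENCODE M21). Insr stood at 10.54, 11.31 and 11.35 in the glioma libraries, against 12.31, 12.53 and 12.44 in the normal libraries. All 3 glioma values lay below all 3 normal values, and the normal values lay within a narrow band. On the linear scale these were 1486, 2534 and 2606 units in glioma and 5093, 5911 and 5548 units in normal endothelium, a ratio of means of 0.400. The difference was -1.36 on the log2 scale (SE 0.44, 95% interval -2.36 to -0.36, n = 3 each). Its unadjusted limma p was 0.0134, and its Benjamini-Hochberg adjusted p over all genes tested was 0.875, so Insr did not pass the threshold of 0.05. An exact 2-sided permutation test gave p = 0.1, the smallest that 3 against 3 libraries allow.

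Over the whole table, 0% of 11862 genes tested passed the adjusted threshold in limma. An unadjusted p below 0.05 was reached by 2.35% of genes in the higher and 1.94% in the lower direction, and Insr was the only one of the 7 members tested to reach it. The 3 glioma libraries lay wholly below the normal libraries for 6.37% of genes and for 1 of 7 members tested, Insr. They lay wholly above for 6.91% of genes and for 0 members. A single member is too few to tell apart from these shares. Fewer libraries leave more genes wholly apart by construction. Without normal replicate 1, 14.7% of genes lay wholly above and 20.7% wholly below, with a median difference of -0.35. Without glioma replicate 1 these were 15% and 12.1%, with a median of 0.10. Without both they were 24.6% and 30.9%, with a median of -0.24. Each count of a list below is to be read beside the share for the same libraries.

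The direction of Insr held in each alternative that was run, with differences from -1.69 to -1.10 and limma adjusted p from 0.081 to 0.996. Without normal replicate 1 it was -1.42, without glioma replicate 1 it was -1.10, and without both it was -1.16 (SE 0.19, limma adjusted p = 0.126). Set against the median of the pan-endothelial markers of its own library, Insr lay at -2.84, -2.28 and -2.45 in glioma and at -0.68, -0.71 and -1.13 in normal endothelium, a log2 difference of -1.69 with groups still apart. In bulk samples, fewer endothelial cells and less RNA per cell cannot be told apart. The annotated 3′ end of Insr also depends on the annotation, since the gene ends at 3122061 in GENCODE and at 3150922 in RefSeq, and which of them the authors counted on is not given in the sources used here.

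**Figure D1:**
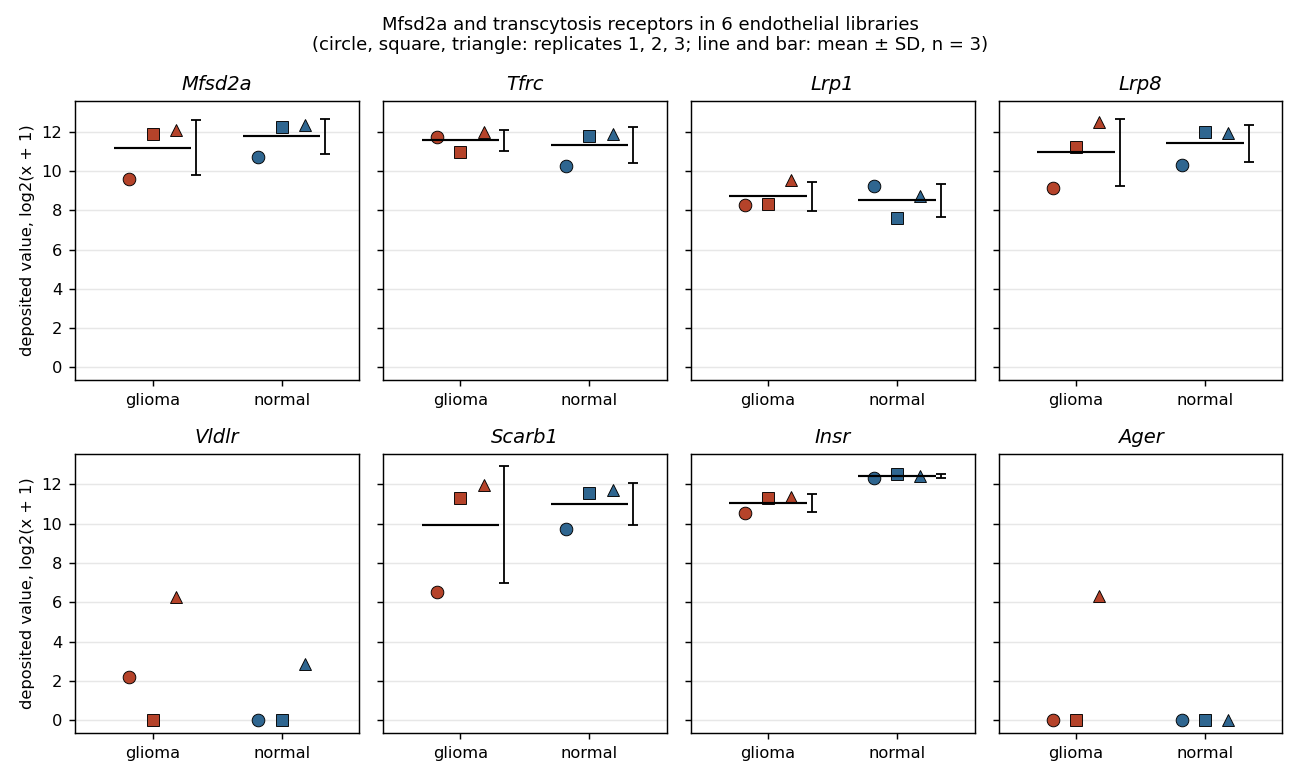
Deposited log2(x + 1) values of the 8 genes in each library, glioma in red at the left and normal in blue at the right of each panel, with the mean and SD (n = 3) beside the points except for Vldlr and Ager, which were listed at 0 in most libraries. Insr is the panel in which the groups do not overlap, with glioma values from 10.54 to 11.35 below normal values from 12.31 to 12.53.

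Igf1r, the receptor for insulin-like growth factor 1 and the closest relative of the insulin receptor, had a higher mean in glioma without passing the test. Igf1r stood at 13.28, 13.37 and 12.45 in glioma, against 11.93, 12.52 and 12.74 in normal libraries, a difference of 0.64 (SE 0.47) with overlapping groups. Within a library, Insr minus Igf1r was -2.74, -2.06 and -1.10 in glioma and 0.39, 0.01 and -0.30 in normal endothelium. The glioma ratios all lay below the normal ones, with a log2 difference of -2.0 (exact 2-sided permutation p = 0.1, the smallest possible). This pair was set side by side after its values were seen.

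Of the 17 tested genes of insulin and IGF receptor signalling, 0 passed the adjusted threshold. Wholly above the normal libraries lay 1 and wholly below 1, beside 6.91% and 6.37% of all genes. Their median difference was 0.47, beside 0.05 over all genes tested. Leaving out normal replicate 1, glioma replicate 1 or both gave 1, 3 and 3 genes wholly above and 2, 1 and 2 wholly below. The shares above were 5.88%, 17.6% and 17.6%, beside 14.7%, 15% and 24.6% of all genes. Those below were 11.8%, 5.88% and 11.8%, beside 20.7%, 12.1% and 30.9%. The medians were 0.24, 0.52 and 0.34, beside -0.35, 0.10 and -0.24 over all genes. Akt1, a kinase downstream of the receptor, stood at 10.86, 11.85 and 11.73 in glioma and at 8.91, 10.73 and 10.54 in normal libraries (difference 1.42, SE 0.63, limma adjusted p = 0.875). Ide, the protease that degrades insulin, stood at 8.62, 8.34 and 8.03 in glioma and at 10.70, 9.92 and 9.47 in normal libraries (difference -1.70, SE 0.69, limma adjusted p = 0.875). Both were wholly apart, and neither passed. The receptor adaptor Irs2 was listed at 0 in 5 of 6 libraries, and Irs1 reached 6.79, 4.38 and 7.61 in glioma against 0, 4.97 and 3.77 in normal libraries.

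Mfsd2a, on chromosome 4 from 122946850 to 122961188 on the minus strand, was abundant in both groups. It stood at 9.57, 11.89 and 12.09 in glioma, against 10.72, 12.22 and 12.33 in normal libraries. Replicate 1 was the lowest library of either group, and the groups overlapped. Among the genes above 0 of its library, Mfsd2a had percentile ranks of 72.8, 92.9 and 93.4 in glioma and of 75.3, 95.01 and 95.9 in normal endothelium. The difference was -0.57 (SE 0.77, 95% interval -2.32 to 1.18, limma adjusted p = 0.891), an interval that holds 0.

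The sign of the Mfsd2a difference rested on glioma replicate 1. Without that library the difference was 0.23, without normal replicate 1 it was -1.09, and without both it was -0.29 (SE 0.20, limma adjusted p = 0.478). In the last comparison the values were 11.89 and 12.09 in glioma against 12.22 and 12.33 in normal libraries, so the groups did not overlap but lay close together. Leaving out normal replicate 1 alone also put Mfsd2a wholly below, which made 2 of 7 members tested with Insr, beside 20.7% of all genes. With both libraries left out the count was again 2 of 7, beside 30.9% of all genes. Relative to the pan-endothelial median the difference was -0.90, with values of -3.80, -1.70 and -1.71 in glioma and of -2.27, -1.02 and -1.23 in normal endothelium.

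Lrp8 and Scarb1 ran with Mfsd2a across the libraries. Lrp8, on chromosome 4 from 107802261 to 107876840 on the plus strand, encodes ApoER2, a receptor for apolipoprotein E and reelin. It stood at 9.12, 11.19 and 12.51 in glioma, against 10.33, 11.97 and 11.94 in normal libraries, a difference of -0.47 (SE 0.87, 95% interval -2.46 to 1.52, limma adjusted p = 0.919). Scarb1, on chromosome 5 from 125277087 to 125341094 on the minus strand, was the most variable of the abundant members. It stood at 6.54, 11.31 and 11.99 in glioma, against 9.75, 11.57 and 11.70 in normal libraries, a difference of -1.06 (SE 1.33, 95% interval -4.08 to 1.96, limma adjusted p = 0.887). In linear units Scarb1 was 91.8 in glioma replicate 1, against 2545 and 4080 in glioma replicates 2 and 3.

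For Mfsd2a, Lrp8 and Scarb1 alike, glioma replicate 1 was the lowest library and normal replicate 1 the next lowest. That order held for 492 of 11862 genes tested (4.15%). Over the 6 libraries Pearson's r with Mfsd2a was 0.96 for Lrp8 and 0.98 for Scarb1, but 0.31 for Tfrc, -0.01 for Lrp1 and 0.59 for Insr. These values describe 6 libraries that share an overall pattern, and carry no test. Without glioma replicate 1 the differences were 0.44 for Lrp8 and 0.65 for Scarb1, and without both replicates numbered 1 they were -0.11 and 0.02. Of the markers, 5 of 15 pan-endothelial and 4 of 10 barrier genes also had glioma replicate 1 lowest and normal replicate 1 next. The median of the pan-endothelial markers did not, at 13.37, 13.59 and 13.80 in glioma and 12.99, 13.24 and 13.57 in normal libraries. Barrier markers had their lowest medians in the same libraries, at 12.64, 13.64 and 13.80 in glioma and 12.82, 14.10 and 14.10 in normal endothelium. Whether less RNA of barrier endothelium in these libraries has a part in the low values was not tested.

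**Figure D2:**
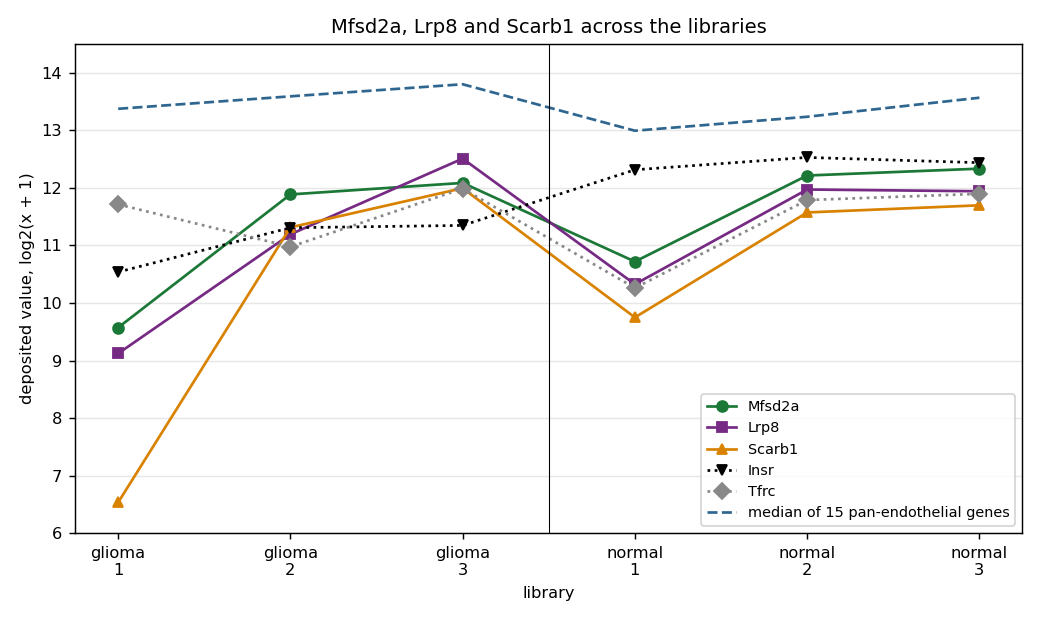
Deposited log2(x + 1) values (vertical axis) of 5 of the genes in the 3 glioma and 3 normal libraries (horizontal axis), with the median of the 15 pan-endothelial markers as a dashed line. Mfsd2a, Lrp8 and Scarb1 (solid lines) are lowest in glioma replicate 1, at 9.57, 9.12 and 6.54, and next lowest in normal replicate 1, while Insr (dotted, black) is lower in all glioma libraries.

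Sequence around an annotated start is shown for the pair of these genes with a promoter among the RefSeq sequences. Those sequences gave 1 or more windows for 6 of the 8 members (GRCm38.p6). Each run goes from 250 bases before to 50 bases after an annotated start. Capitals mark a match to 1 of 4 motifs searched on both strands. These were the GC box GGGCGG, the TCF/LEF core CTTTGA of Wnt signalling, the ETS core CCGGAA and the sterol regulatory element TCACNCCAC.
Mfsd2a, chr4:122961139-122961438, minus strand: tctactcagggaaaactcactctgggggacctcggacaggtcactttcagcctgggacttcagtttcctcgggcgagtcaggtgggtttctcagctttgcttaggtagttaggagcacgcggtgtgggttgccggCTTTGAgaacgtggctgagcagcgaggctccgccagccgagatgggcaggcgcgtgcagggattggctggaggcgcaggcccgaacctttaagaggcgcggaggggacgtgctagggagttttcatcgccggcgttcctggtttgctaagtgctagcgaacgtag
Lrp8, chr4:107802635-107802934, plus strand: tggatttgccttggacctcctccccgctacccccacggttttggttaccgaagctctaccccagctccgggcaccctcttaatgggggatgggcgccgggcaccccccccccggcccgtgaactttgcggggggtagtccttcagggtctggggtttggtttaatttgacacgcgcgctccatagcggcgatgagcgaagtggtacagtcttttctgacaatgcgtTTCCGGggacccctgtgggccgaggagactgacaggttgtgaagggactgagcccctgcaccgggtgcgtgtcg
The Mfsd2a window held 1 TCF/LEF core, which occurs in 16% of the 32851 windows of that length. This Lrp8 window, the first of 3 annotated for the gene, held 1 ETS core, read on the opposite strand, and 14.9% of windows hold one, while the other two Lrp8 windows held none of the 4 motifs. Neither window shown held a GC box, found in 35.7% of windows, or a sterol regulatory element, found in 1.24%. These are matches of letters only, and no motif was shared by the windows shown. All 3 Lrp8 windows lie inside the gene, which starts at 107802261 in GENCODE and at 107802200 in RefSeq. None of them covers the sequence before the gene.

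The genes most like Mfsd2a, among 5879 genes above 0 and not constant in all libraries, were Col4a3bp, Slfn5 and Gas6, each with Pearson's r of 0.997 over the 6 libraries. Gas6, which encodes a ligand of TAM receptor kinases, stood at 8.09, 11.99 and 11.95 in glioma and 10.01, 12.15 and 12.48 in normal libraries. Btbd1 was the least like it (r = -0.993). For Insr the nearest were Zfp281 (0.994), Flt3l (0.993) and Slx1b (0.993), and Ufd1l was the farthest (-0.974). These are the extremes of all those genes over only 6 libraries, and are given as a description.

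Of 14 tested relatives and reported regulators of Mfsd2a, 0 passed the adjusted threshold. Wholly above lay 1 and wholly below 1, beside 6.91% and 6.37% of all genes, with a median difference of 0.08. Leaving out normal replicate 1 gave 2 wholly above and 3 wholly below (14.3% and 21.4%, beside 14.7% and 20.7% of all genes). Leaving out glioma replicate 1 gave 1 and 1 (7.14% each, beside 15% and 12.1%). Leaving out both gave 3 and 4 (21.4% and 28.6%, beside 24.6% and 30.9%). The medians were 0.04, 0.14 and 0.06. Among 9 tested caveola genes the median difference was -0.72, with 0 wholly above and 2 wholly below, beside 6.91% and 6.37% of all genes. Cav1, the main coat protein of caveolae, stood at 10.07, 12.50 and 12.87 in glioma and at 11.35, 12.27 and 12.35 in normal libraries, with overlapping groups. Ptrf, which encodes cavin 1, stood at 13.90, 14.02 and 13.42 in glioma and at 14.89, 15.37 and 15.20 in normal libraries (difference -1.37, SE 0.47, limma adjusted p = 0.875). Ptrf and Pacsin3 were the pair wholly below. With normal replicate 1 left out, 1 gene of the list, Plvap, lay wholly above (11.1%, beside 14.7% of all genes). Wholly below were 5 of 9 (55.6%, beside 20.7% of all genes), with a median of -1.13. Plvap stood at 12.59, 11.32 and 11.99 in glioma and at 11.66, 10.64 and 10.58 in normal libraries. With glioma replicate 1 left out the counts were 2 and 3 (22.2% and 33.3%, beside 15% and 12.1% of all genes) and the median -0.47. With both left out they were 3 and 5 (33.3% and 55.6%, beside 24.6% and 30.9%) and -0.88.

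Tfrc, on chromosome 16 from 32608920 to 32632794 on the plus strand, encodes the transferrin receptor. Its messenger RNA is known to carry iron responsive elements in the 3′ UTR, hairpins on which iron regulatory proteins protect the transcript when iron is low. They are shown here because they are a known control point of the transcript level that these libraries measure. In the longest coding transcript of GENCODE M21, with a 3′ UTR of 2458 bases, 4 of 8 CAGTG matches had a C 5 bases before them and a stem of 5 paired bases (G-T pairs allowed), with the loop CAGTGN in capitals.
Element 1, chr16:32631220-32631246: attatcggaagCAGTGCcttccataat
Element 2, chr16:32631599-32631625: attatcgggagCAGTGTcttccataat
Element 3, chr16:32631664-32631690: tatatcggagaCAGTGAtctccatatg
Element 4, chr16:32631711-32631737: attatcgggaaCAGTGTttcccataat
The 4 elements found by this rule lay within 518 bases, and the last of them ended 1057 bases before the annotated end of the transcript. Elements that depart from the rule would not be found.

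Tfrc stood at 11.71, 10.98 and 11.99 in glioma, against 10.26, 11.79 and 11.90 in normal libraries. Normal replicate 1 was the lowest library, and the other 5 lay within about a unit of each other. The difference was 0.24 (SE 0.58, 95% interval -1.08 to 1.57, limma adjusted p = 0.941). It was -0.28 without normal replicate 1, and -0.08 relative to the pan-endothelial median. Red cell precursors and dividing cells also use this receptor. The log2 of the summed linear values of the erythroid markers was 17.94, 15.69 and 13.28 in glioma and 12.99, 15.18 and 14.97 in normal libraries. Their 9 symbols held 6 distinct rows because near-identical globin genes carry the same values, and each row was counted once. The median of 16 proliferation markers was 9.96, 8.06 and 7.94 in glioma, and 8.97, 0 and 0 in normal libraries. The part of either in the Tfrc values was not tested.

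Of the other iron handling genes 17 were tested and 0 passed. Wholly above lay 1 and wholly below 1, beside 6.91% and 6.37% of all genes, with a median difference of 0.97. Slc11a2, which encodes DMT1, the transporter that moves iron out of endosomes, stood at 9.10, 8.72 and 8.91 in glioma, against 7.43, 7.21 and 7.69 in normal libraries (difference 1.46, SE 0.90, limma adjusted p = 0.875). Its groups were wholly apart. Ncoa4, the receptor for autophagy of ferritin, was the gene wholly below. Ftl1, the ferritin light chain, stood at 11.85, 10.68 and 11.53 in glioma and at 11.01, 9.43 and 9.46 in normal libraries, so 1 glioma value fell below the highest normal one. Slc40a1, the iron exporter ferroportin, stood at 10.23, 11.08 and 11.60 in glioma and at 8.57, 10.79 and 10.63 in normal libraries. Tfr2, the second transferrin receptor gene, was above 0 only in glioma replicate 1, at 5.25. With normal replicate 1 left out, 4 genes of the iron list lay wholly above and 2 wholly below, and its median was 0.14. The shares were 23.5% and 11.8%, beside 14.7% and 20.7% of all genes. With glioma replicate 1 left out the list gave 4, 1 and 1.14 (23.5% and 5.88%, beside 15% and 12.1%). With both left out it gave 7, 3 and 0.40 (41.2% and 17.6%, beside 24.6% and 30.9%).

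Lrp1, on chromosome 10 from 127538161 to 127621148 on the minus strand, had the lowest mean of the 6 members above 0 in every library, although Scarb1 lay below it in glioma replicate 1. It stood at 8.28, 8.30 and 9.56 in glioma, against 9.22, 7.58 and 8.72 in normal libraries, with overlapping groups and a difference of 0.21 (SE 0.88, 95% interval -1.79 to 2.21, limma adjusted p = 0.971). Its sign changed to -0.25 without normal replicate 2 and to -0.21 without glioma replicate 3, the library with the highest value. LRP1 is also a receptor of macrophages, pericytes and fibroblasts. The log2 of the summed linear values of the 19 microglia and macrophage markers found was 10.68, 10.01 and 15.05 in glioma and 11.99, 8.50 and 8.43 in normal libraries. Of these markers, 16, 5 and 15 were above 0 in glioma and 6, 9 and 11 in normal libraries. The same measure of 12 pericyte and smooth muscle markers was 13.32, 13.86 and 14.17 in glioma and 14.37, 12.78 and 13.10 in normal libraries. For 12 fibroblast markers it was 11.99, 9.56 and 5.71 in glioma and 10.18, 6.87 and 6.10 in normal libraries. Lrp1 was highest in glioma replicate 3, where microglia and macrophage markers were highest and fibroblast markers lowest. The part of these cells in Lrp1 was not tested. Of the 19 microglia and macrophage markers, Ctss and C1qa were the highest in glioma replicate 3, at 14.15 and 11.69. Another of them, Adgre1, which encodes a surface antigen of macrophages, was listed at 0 in all 6 libraries.

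Vldlr and Ager were at or near the floor. Vldlr, on chromosome 19 from 27216484 to 27254231, encodes the VLDL receptor. It was listed at 2.22, 0 and 6.28 in glioma, against 0, 0 and 2.84 in normal libraries. The limma difference of 1.89 (SE 1.98, adjusted p = 0.878), which was 0.16 without glioma replicate 3 and 3.31 without glioma replicate 2, rests on these 3 values above 0, all at or below the 11.7th percentile of their library, and every one lay below the lowest value of normal replicate 1. Ager, on chromosome 17 from 34597862 to 34600936, was listed at 0, 0 and 6.31 in glioma and at 0 in all 3 normal libraries, so it did not enter the test. Its one value stood at the 11.4th percentile of glioma replicate 3, where the lowest value above 0 was 5.22. Ligands of RAGE were measured with it: Hmgb1, a chromatin protein released by damaged cells, stood at 11.13, 9.40 and 10.40 in glioma and at 9.53, 10.40 and 10.35 in normal libraries. S100a6, a calcium-binding protein, stood at 11.56, 11.77 and 11.11 in glioma and at 13.06, 8.09 and 7.72 in normal libraries. Nfkb1, a subunit of NF-kappaB, stood at 8.17, 8.65 and 7.40 in glioma and at 0, 6.93 and 7.68 in normal libraries. Of the 9 tested RAGE ligand and signalling genes 0 passed and 0 were wholly apart, with a median difference of 0.22. Leaving out normal replicate 1, glioma replicate 1 or both put 1, 1 and 2 wholly above and 0, 0 and 1 wholly below. The shares above were 11.1%, 11.1% and 22.2%, beside 14.7%, 15% and 24.6% of all genes. Those below were 0%, 0% and 11.1%, beside 20.7%, 12.1% and 30.9%. The medians were -0.07, 0.81 and -0.05, beside -0.35, 0.10 and -0.24 over all genes.

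**Figure D3:**
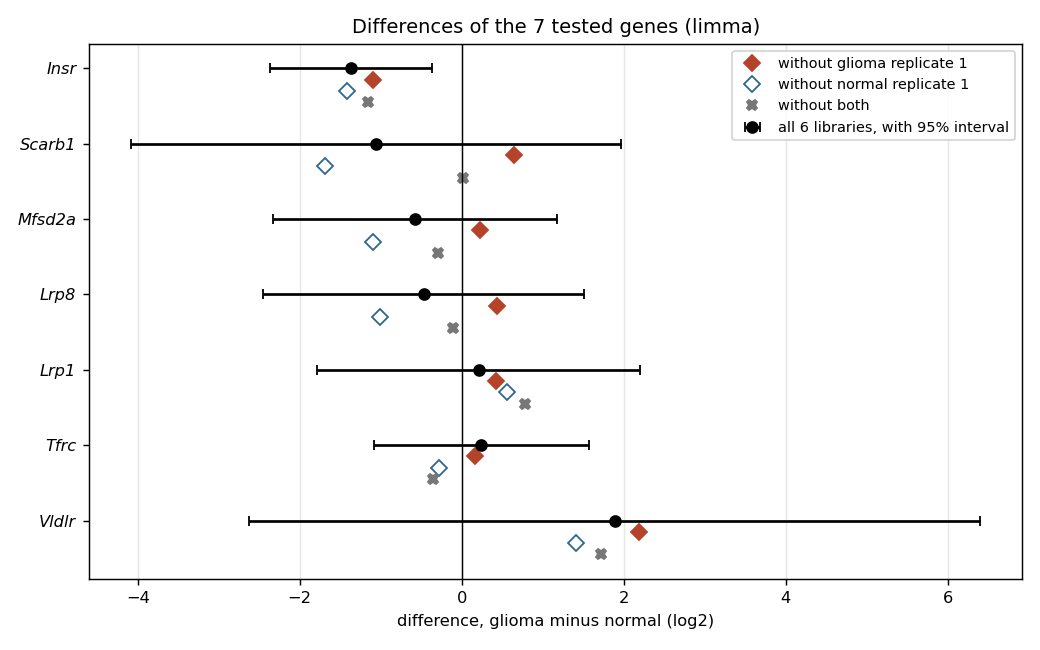
Difference of each of the 7 tested genes, glioma minus normal, on the log2 scale (horizontal axis), with its 95% interval from limma over all 6 libraries as a black point and bar, and as smaller symbols the same difference with replicate 1 of either group, or both, left out. The interval of Insr (-2.36 to -0.36) does not reach 0, while Mfsd2a, Lrp8 and Scarb1 change sign without glioma replicate 1.

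In normal endothelium the members kept one order, Insr above Mfsd2a, Lrp8, Tfrc, Scarb1 and Lrp1, in each of the 3 libraries. The mean steps between neighbours from Insr to Scarb1 were 0.67, 0.34, 0.10 and 0.31 on the log2 scale, smaller than the SD of 0.90 to 1.09 of Mfsd2a, Lrp8, Tfrc and Scarb1 over the libraries. The step from Scarb1 to Lrp1 was 2.5 and the step from Lrp1 to Vldlr 7.56. In glioma no such order held: Tfrc had the highest mean at 11.56, followed by Mfsd2a at 11.18, Insr at 11.06 and Lrp8 at 10.94, and of the 7 steps only that from Lrp1 to Vldlr had the same direction in all 3 libraries. Insr was the first of the 6 detected members in every normal library, and in glioma replicates 1, 2 and 3 it was below Tfrc, below Mfsd2a and Scarb1, and below 4 others.

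The wider LDL receptor family did not move one way. Of 16 family genes, 13 were tested with Lrp1, Lrp8 and Vldlr among them. The count that passed was 0. Wholly above lay 0 and wholly below 1, beside 6.91% and 6.37% of all genes. The median difference was 0.21, beside 0.05 over all genes. That sign turned without the replicates numbered 1. With normal replicate 1 left out the median was -0.37, beside -0.35 over all genes, and 2 lay wholly below (15.4%, beside 20.7% of all genes). With glioma replicate 1 left out it was -0.16, beside 0.10, and 1 lay wholly below (7.69%, beside 12.1%). With both left out it was -0.67, beside -0.24, and 3 lay wholly below (23.1%, beside 30.9%). In each case 0 genes of the family lay wholly above, beside 14.7%, 15% and 24.6% of all genes. With all 6 libraries, Lrp6, a coreceptor of Wnt ligands, was the gene wholly below, at 6.54, 7 and 7.07 in glioma and 8.18, 8.75 and 9.54 in normal libraries. Ldlrad3 stood at 8.46, 11.62 and 11.81 in glioma and at 10.42, 13.25 and 13.24 in normal libraries, again with both replicates numbered 1 lowest. Lrp2, which encodes megalin, was above 0 only in glioma replicate 1, at 0.42.

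Other genes of a list of transcytosis targets were set beside the members, among them Alpl, Lepr, Stra6 and Slc7a5. Of the 13 genes of that list, 0 passed. Wholly above lay 1 and wholly below 2 (Alpl and Bsg), beside 6.91% and 6.37% of all genes, with a median of 0.24. That median was -0.50 with normal replicate 1 left out (1 above, 2 below, beside 14.7% and 20.7% of all genes). It was 0.52 with glioma replicate 1 left out (4 above, 2 below, beside 15% and 12.1%). With both left out it was -0.32 (4 above, 3 below, beside 24.6% and 30.9%). Bsg, which encodes basigin, had the highest mean in both groups, at 15.68, 15.95 and 16.05 in glioma and 16.77, 17.07 and 17.07 in normal libraries, wholly below (difference -1.07, SE 0.65, limma adjusted p = 0.875). Slc3a2, which encodes the CD98 heavy chain, stood at 10.54, 13.10 and 14.27 in glioma and 9.66, 12.70 and 12.71 in normal libraries. Igf2r, the receptor that sorts lysosomal enzymes, stood at 9.79, 8.70 and 9.20 in glioma and at 0, 7.46 and 7.61 in normal libraries. Fcgrt, which encodes the neonatal Fc receptor, stood at 8.68, 11.56 and 10.97 in glioma and at 9.98, 11.40 and 11.35 in normal libraries.

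**Figure D4:**
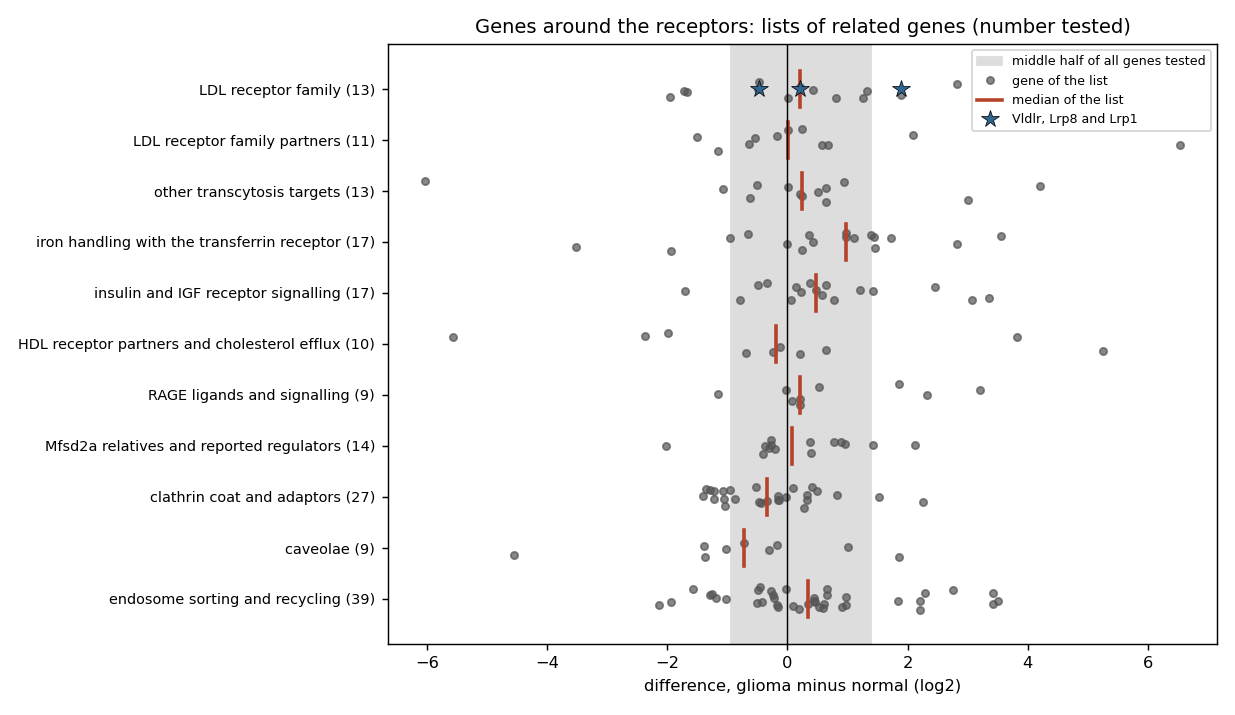
Differences, glioma minus normal, on the log2 scale (horizontal axis) for the tested genes of 11 lists of related genes (rows, with the number tested), each point a gene, each red bar a list's median, and stars Vldlr, Lrp8 and Lrp1. The grey band, from -0.94 to 1.38, runs from the lower to the upper quartile of all genes tested, and the list medians run from -0.72 for caveolae to 0.97 for iron handling.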

How the data were processed

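Per the labels' protocols, RNA was extracted with Trizol and sequenced as Lexogen QuantSeq libraries, which read 3′ ends. Per the submitters' processing notes, Bowtie2, edgeR and mm10 were used, in roles and versions that are not stated. How reads were counted, with what annotation and strand, and how they were normalized is not given in the sources used here. From the values themselves, the deposited log2 values were read as log2(x + 1) of values that look quantile-normalized over the 6 libraries, genes at 0 apart, because 2 to the value, minus 1, lay within 0.02 of a multiple of 1/6 for 100% of values above 0 and the highest value was 20.85 in each library. Depth is therefore unknown, and no count test was possible.

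The values were fitted with limma 3.58.1 (R 4.3.3), group as the only term, a mean trend in the variance prior, 4 residual degrees of freedom, and Benjamini-Hochberg adjustment over the 11862 genes for which x reached 1 in 3 or more libraries. Of the 8 members 7 passed that filter. Differences are glioma minus normal. The fit was tested on simulated data, but the settings and result are not given here, so no conclusion is drawn from that test. The members and lists were chosen with earlier results of these data known. Named genes were all members, the 3 most and the 1 least correlated genes for Mfsd2a and Insr, the 2 genes with the smallest p of each related list, and further ones chosen after their values were seen. Some genes that this rule names are not reported here. Alternatives changed the filter, pseudocount, floor, centring, variance prior, library weights, replicate block and libraries. The libraries left out together were also chosen after seeing the data. Positions are from GENCODE M21 (GRCm38, the assembly of mm10), and none of the 6 genes that overlap a member covers its 3′ end.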

Additional observations from a re-analysis of the deposited data

How the results depend on the processing

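No member passed the adjusted threshold in limma under any alternative run, and Insr and Vldlr kept their sign wherever they gave a value, but Vldlr ranged from 0.16 to 3.31 when each library was left out and was 0.31 with array weights and 0.79 with a pseudocount of 16. Over all genes the count past the threshold was 0, but 15 with no trend in the variance prior and 6 with array weights. Leaving out each library in turn gave differences from -1.09 to 0.23 for Mfsd2a, -1.26 to 0.44 for Lrp8, -2.08 to 0.65 for Scarb1, -0.28 to 0.54 for Tfrc and -0.25 to 0.56 for Lrp1, and 1 to 2 members wholly below. With both replicates numbered 1 left out, Tfrc was -0.36, Scarb1 0.019 and the count wholly below 2. Centring on pan-endothelial genes gave -0.079 for Tfrc and -0.12 for Lrp1, and array weights gave -0.48 for Tfrc. The cause of these changes was not tested. With a shared floor of 7.43 all Vldlr values were equal, so it gave no value, and with genes above 0 in all 6 libraries Vldlr was not tested. Same-numbered libraries deviated together with r of 0.194, 0.152 and 0.060, and differently numbered ones with r from -0.186 to 0.191. These values do not settle whether the numbers pair the libraries, so the numbers are not taken as pairs. As a block in the fit they gave an SE of 0.44 for Mfsd2a, 0.51 for Lrp8 and 0.75 for Scarb1, against 0.77, 0.87 and 1.33. For Lrp1 the SE was 0.91, against 0.88. With the replicate block, 0 genes passed and 610 reached an unadjusted p below 0.05, against 509 without it. That count was 2251 with array weights, 1211, 303 and 316 without normal replicates 1, 2 and 3, and 2446 without both replicates numbered 1. The names of normal replicates 2 and 3 in the files end in the same digits, as do those of glioma replicates 2 and 3. No such ending is shared between groups. Whether the digits mark batches is not known. The part of a batch that followed them in a difference between groups could not be told apart from the group.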

Other observations

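The machinery that forms and sorts vesicles was described as well. Of 27 tested genes of the clathrin coat and its adaptors, 0 passed, 0 lay wholly above and 4 wholly below, with a median difference of -0.34, beside 6.91% above, 6.37% below and a median of 0.05 over all genes. Leaving out normal replicate 1 gave 2 above (7.41%), 6 below (22.2%) and a median of -0.46, beside 14.7%, 20.7% and -0.35 over all genes. Leaving out glioma replicate 1 gave 1 (3.70%), 5 (18.5%) and -0.46, beside 15%, 12.1% and 0.10. Leaving out both replicates numbered 1 gave 4 (14.8%), 10 (37.0%) and -0.76, beside 24.6%, 30.9% and -0.24. Ap2a1, a subunit of the AP-2 adaptor, stood at 9.84, 8.74 and 8.88 in glioma and at 10.73, 10.25 and 10.16 in normal libraries (limma adjusted p = 0.875). Hip1r, which links clathrin to actin, stood at 8.91, 9.12 and 8.11 in glioma and at 9.52, 10.44 and 10.25 in normal libraries. Of 39 genes of endosome sorting and recycling, 0 passed, 5 lay wholly above (Rab4a, Rab7, Rab11b, Vps35 and Ehd3) and 2 wholly below (Rab5b and Exoc7), beside the same shares of all genes. Rab7, a GTPase of late endosomes, stood at 13.20, 13.44 and 14.14 in glioma and at 13.19, 12.75 and 12.88 in normal libraries. Vps35, a retromer subunit, stood at 9.65, 9.43 and 9.43 in glioma and at 8.11, 8.63 and 9.06 in normal libraries. Rab5b, a GTPase of early endosomes, stood at 9.11, 8.18 and 7.08 in glioma and at 10.43, 9.88 and 9.86 in normal libraries. The median of the endosome list was 0.35, beside 0.05 over all genes. Without normal replicate 1 it was -0.10, beside -0.35 over all genes. There were then 8 above and 4 below (20.5% and 10.3%, beside 14.7% and 20.7% of all genes). Without glioma replicate 1 there were 15 above and 6 below (38.5% and 15.4%, beside 15% and 12.1%). Without both there were 17 and 8 (43.6% and 20.5%, beside 24.6% and 30.9%). Vamp8, which acts in endosome fusion, stood at 11.02, 10.27 and 8.93 in glioma and at 12.30, 11.04 and 10.66 in normal libraries, with overlapping groups.

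Of 11 tested ligands, chaperones and adaptors of the LDL receptor family, 3 lay wholly above and 1 wholly below, beside 6.91% and 6.37% of all genes, with a median difference of 0.01. Without normal replicate 1 there were 5 above and 1 below (45.5% and 9.09%, beside 14.7% and 20.7% of all genes), with a median of 0.61. Without glioma replicate 1 there were 4 and 1 (36.4% and 9.09%, beside 15% and 12.1%), with a median of 0.76. Without both replicates numbered 1 there were 7 and 1 (63.6% and 9.09%, beside 24.6% and 30.9%), with a median of 0.92. Of 10 tested HDL receptor partners and cholesterol efflux genes, 1 lay wholly above (Lcat) and 1 wholly below (Pdzk1), with a median of -0.18. Without normal replicate 1 there were 1 and 3 (10% and 30%, beside 14.7% and 20.7% of all genes). Without glioma replicate 1 there were 2 and 1 (20% and 10%, beside 15% and 12.1%). Without both replicates numbered 1 there were 3 and 3 (30% and 30%, beside 24.6% and 30.9%). Alpl, an alkaline phosphatase of brain endothelium, belongs to the list of transcytosis targets. It was listed at 0, 10.95 and 9.69 in glioma and at 11.44, 13.53 and 13.75 in normal libraries. Lcat, the enzyme that esterifies cholesterol on HDL, was listed at 4.37, 4.07 and 7.32 in glioma and at 0 in each normal library. These glioma values are below the lowest one above 0 of normal replicate 1. Lcat passed the filter through the glioma libraries alone, so once tested it could only lie wholly above. Pdzk1, which in liver holds SR-BI at the membrane, was listed at 6.93, 0 and 0 in glioma and at 9.02, 7.36 and 7.26 in normal libraries. None of these passed the adjusted threshold in limma.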
